A study of Bos taurus with 6 samples.

Results

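Collagens, laminins and integrins are the chains from which cells build extracellular matrix and the receptors by which they hold on to it. The genes described here were chosen by name from the count table of cultured bovine blastocysts: collagen chains, laminin chains, integrin alpha and beta chains, and the genes NID1, NID2, FN1, SPARC and HSPG2. The patterns matched 56 names, of which the rule left out COL5A2 and COL3A1, so 54 of 12826 genes are members. They hold 21 collagen genes, 7 laminin genes, 17 integrin genes and the 5 genes named singly. The other 4 members match a pattern but encode no chain. COL4A3BP is an older symbol of the ceramide transfer protein gene CERT1, ITGB1BP1 encodes an adaptor that binds an integrin tail, ITGB1BP2 encodes the chaperone-like protein melusin, and ITGB3BP encodes a centromere protein. Of 86 protein-coding symbols in the ARS-UCD2.0 gene table that match the patterns, 52 are rows of the count table, and the other 34 are not analysed here.

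The study compared Bos taurus blastocysts at day 7 of in vitro culture that had received beta-hydroxybutyrate (BHB), a ketone body, with untreated controls. There are 3 libraries in each group, all of polyadenylated RNA from pools of embryos derived from slaughterhouse material, made with a stranded kit. Dose, exposure time, breed and pool size are not stated in the labels. No label says whether pools stem from different culture rounds; p-values therefore measure only how much these libraries vary, which may be technical. Each control library is set beside the BHB library of the same number as a pair. The labels do not state these pairs; they come from the model that returns the p-values of the authors' deposited table. In pools of whole embryos, fewer cells of a type and less RNA per cell cannot be told apart.

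In the early embryo, trophectoderm and primitive endoderm lay down a basement membrane between them and the inner cells. Its sheet is a network of collagen IV and a network of laminin, each laminin being a trimer of an alpha, a beta and a gamma chain. Nidogen and perlecan tie the networks together, and integrins, which are dimers of an alpha and a beta chain, bind the sheet to the cell. Fibronectin is a further ligand of integrins, and SPARC is a collagen-binding protein made in quantity by endoderm that deposits matrix.

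Totals ran from 6440732 to 8176648 counts per library. Levels are given as CPM, a gene's counts relative to the library's total, with library sizes scaled by TMM, a method that sets the bulk of genes equal between libraries. Transcript lengths were not used, so CPM compares 1 gene between libraries and not 1 gene with another. Markers of the blastocyst lineages were present, with 13 of 15 trophectoderm, 8 of 10 epiblast and 10 of 12 primitive endoderm markers in the table. Summed over each list, trophectoderm markers ranged from 11727 to 19040 CPM in controls and from 9287 to 15149 CPM with BHB, epiblast markers from 771 to 791 and from 704 to 845 CPM, and primitive endoderm markers from 862 to 1068 and from 753 to 1040 CPM. The keratin gene KRT8 held most of the trophectoderm sum and DAB2 most of the primitive endoderm sum. DAB2 is on both of these lists, and PDGFRA is on the primitive endoderm and fibroblast lists. Of lists for other cells, 3 of 12 cumulus and granulosa markers were in the table (29.6 to 37.5 CPM in controls, 28.2 to 35.3 CPM with BHB), 7 of 10 fibroblast markers (115 to 232 and 86.4 to 194 CPM) and 2 of 6 endothelial markers (65.6 to 78.8 and 57.8 to 112 CPM). Of 10 leukocyte markers, 2 were in the table (253 to 474 and 307 to 364 CPM), nearly all of it CD48, and the pan-leukocyte gene PTPRC was not among its genes.

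The 54 members took 0.474 to 0.574% of all counts in control and 0.537 to 0.598% in BHB libraries. FN1, the fibronectin gene, held 53.6 to 58.8% of those member counts. Members spanned a wide range of read support, with 11 at a mean of 50 CPM or more, 19 between 5 and 50 CPM and 24 under 5 CPM. All 54 passed the filter on low counts. The precision followed the level: the median half-width of the 95% interval of a log2 fold change was 0.47 in members at 50 CPM or more, 0.61 between 5 and 50 CPM and 1.12 under 5 CPM.

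**Figure D1:**
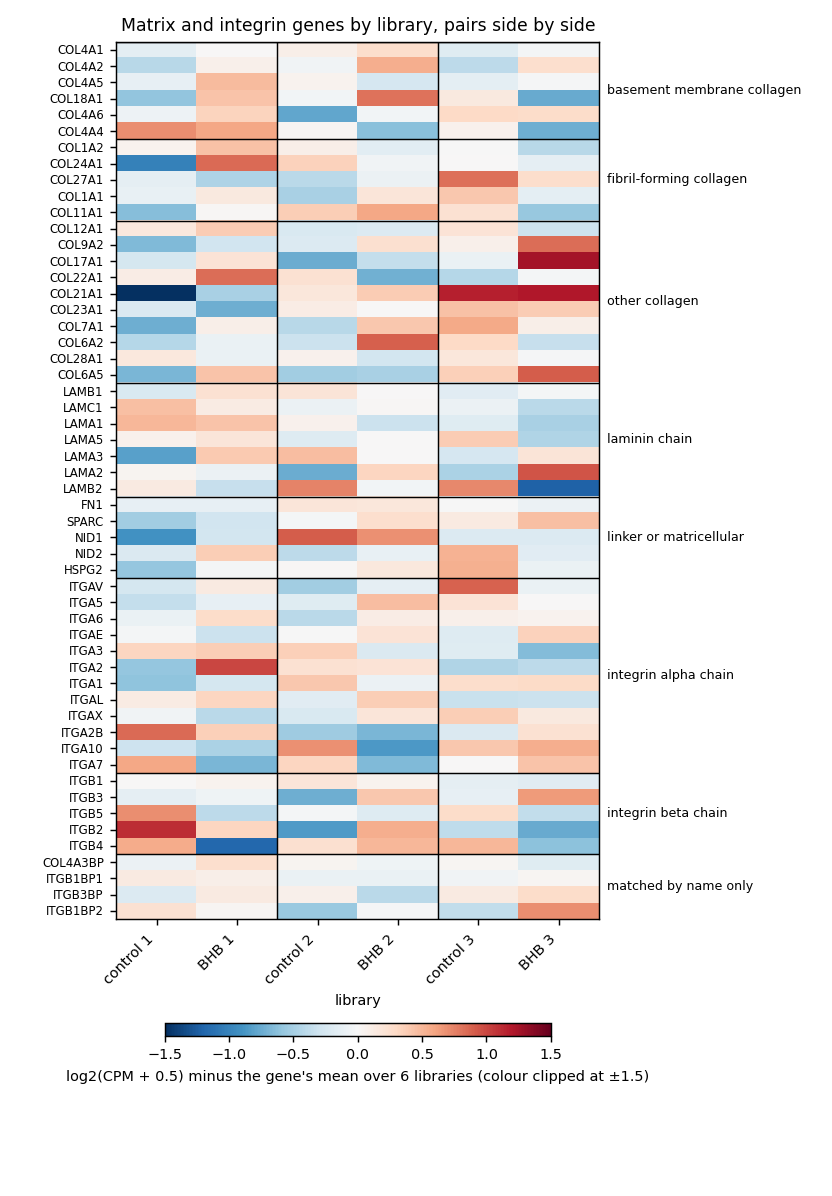
Each row is a member gene and each column a library, with the libraries of a pair side by side; colour gives log2(CPM + 0.5) minus the mean of that gene over the 6 libraries. NID1 is reddest in both libraries of pair 2, and SPARC and COL21A1 are bluest in both libraries of pair 1, while COL4A2 and ITGB3 are redder and LAMB2 and ITGB5 bluer in the BHB column of each pair.

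The comparison of BHB with control asks which matrix and adhesion genes differ with the ketone body. No member passed edgeR's quasi-likelihood test with Benjamini-Hochberg adjustment (smallest adjusted p = 0.999), where 0% of the 12732 tested genes passed. DESeq2's Wald test also called 0 members (0.0471% of all tested genes), as did limma-voom, and edgeR and DESeq2 with the pair as a block. At an unadjusted p under 0.05, edgeR had 4 of 54 members (7.41%) against 2.73% of all tested genes, limma-voom had 4 against 2.64%, and DESeq2 had 3 against 2.35%. These 4 were COL4A2 and ITGB3 on the higher side, where 1.46% of all tested genes lay, and LAMB2 and ITGB5 on the lower side, where 1.26% lay. Within pairs the edgeR count was 7 of 54 (13.0%) against 8.20% of all tested genes. COL9A2, COL17A1 and SPARC joined the same 4, giving 5 higher (background 3.99%) and 2 lower (background 4.21%). The DESeq2 count within pairs was 2 (ITGB3 and SPARC) against 4.67%.

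The members as a set did not shift in 1 direction. Their median log2 fold change was 0.02, with 31 positive and 23 negative, where all tested genes had a median of 0.00 with 49.1% positive. Values of BHB and control libraries lay fully apart in 5 members (9.26%), against 7.84% of all tested genes. COL4A2 and ITGB3 had BHB above (background 4.06%), and ITGB5, LAMB2 and COL28A1 had BHB below (background 3.78%). The direction was shared by 3 of 3 pairs in 16 members (29.6%), against 30.3% of all tested genes. Of these, 9 were higher with BHB (background 14.5%) and 7 lower (background 15.7%). By pair, the median member difference was 0.24 in pair 1, 0.13 in pair 2 and -0.04 in pair 3. The 21 collagen genes had 15 positive and 6 negative values (median 0.19) and the 17 integrin chains 6 positive and 11 negative (median -0.08). No gene of the lineage marker lists passed edgeR's test either (adjusted p = 0.999). Within pairs, DESeq2's Wald test called 1 of 8 tested epiblast genes, NANOG, and 0 of the other lineage lists, where 0.275% of all tested genes were called. NANOG, POSTN and KRT19 each had an adjusted p under 0.05 in at least 1 alternative fit. For POSTN and KRT19, such fits all left out 1 library or 1 pair. The fibroblast list had 2 positive and 5 negative values (median -0.38), and VIM at -1.34 (SE 0.40) and POSTN at -1.17 (SE 0.40) were the members with the smallest p. Without control library 3, VIM was -0.79 and POSTN -0.88. POSTN was higher with BHB in pair 2, at 23.1 CPM in the control and 28.0 CPM in the BHB library. The epiblast list had 5 positive and 3 negative (median 0.13), with NANOG at -0.84 (SE 0.21) and KLF17 at 0.72 (SE 0.22). The trophectoderm list had 4 positive and 8 negative (median -0.07), and its sum was lower in the BHB library of each pair. Most of that sum was KRT8, at 12283, 11329 and 7369 CPM in controls and 9804, 8217 and 5706 CPM with BHB. The sum therefore says little of the other genes on the list, of which TFAP2C had 0.37 (SE 0.18) and KRT19 -0.82 (SE 0.37). Without control library 2, TFAP2C was 0.24 and KRT19 -0.27. The part of these markers in the member values was not tested. Intervals lay wholly between -1 and 1 on the log2 scale in 23 members, so for the other 31 a 2-fold difference in at least 1 direction remained inside the interval.

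**Figure D2:**
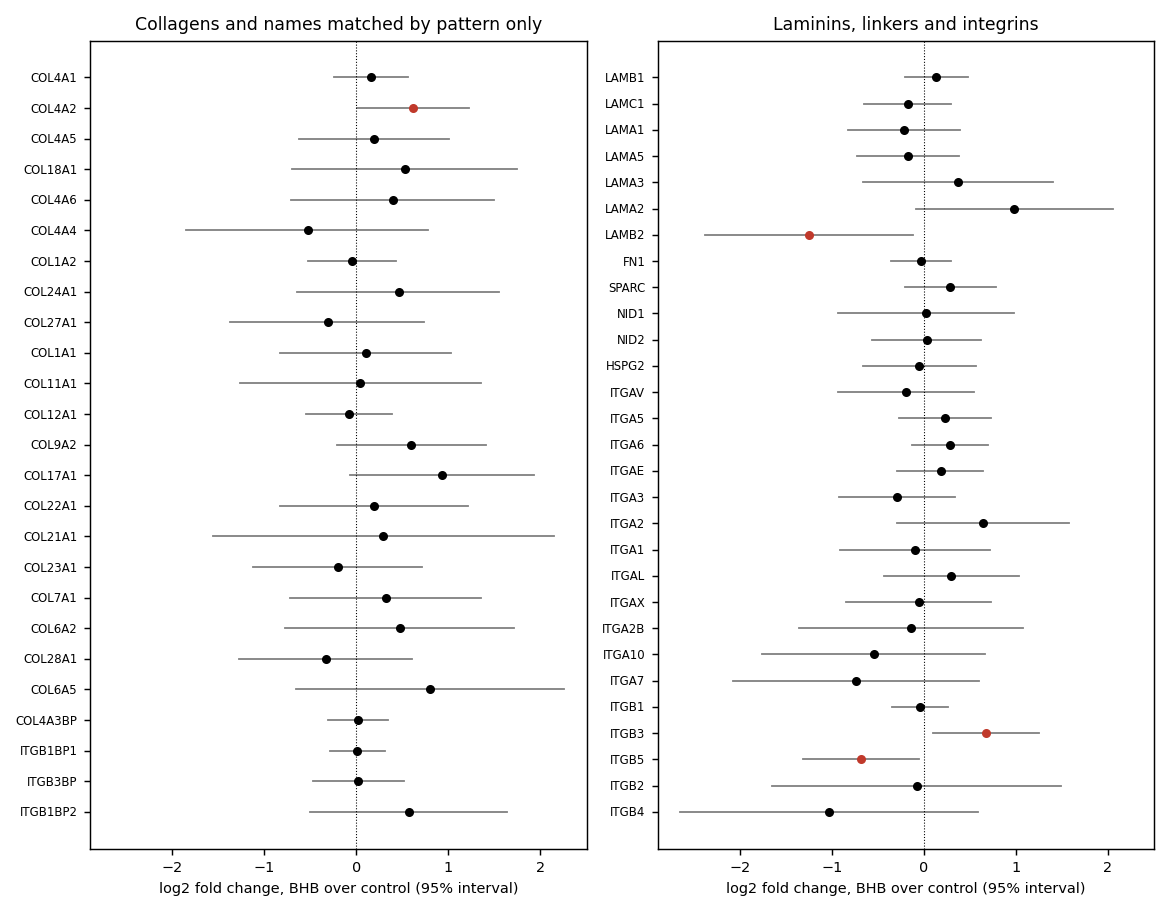
Points give the log2 fold change of BHB over control for each member in edgeR's fit without pairing, and lines its 95% interval. Red points are the 4 members at an unadjusted p under 0.05 (COL4A2, LAMB2, ITGB3 and ITGB5); none passed after adjustment, and intervals widen toward the weakly covered genes at the foot of each group.

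Among basement membrane collagens, the pair of chains COL4A1 and COL4A2 had most reads. They encode the alpha1 and alpha2 chains, which assemble as a trimer with 2 alpha1 chains and 1 alpha2 chain, and the genes are direct neighbours in the ARS-UCD2.0 gene table. COL4A2 was at 5.88, 7.69 and 5.99 CPM in control libraries 1 to 3 and at 8.49, 11.9 and 9.63 CPM in BHB libraries 1 to 3. All 3 BHB libraries lay above all 3 controls, and the difference within pairs was 0.49, 0.60 and 0.64 on the log2 scale. The mean was 6.52 ± 1.02 (SD, n = 3) in control and 10 ± 1.74 (SD, n = 3) in BHB libraries. Its log2 fold change was 0.62 (SE 0.27, 95% interval 0.01 to 1.23; edgeR adjusted p = 0.999). Within pairs it was again 0.62 (SE 0.24; edgeR adjusted p = 0.564).

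COL4A1 was at 23.5, 27.6 and 22.9 CPM in control and 26.1, 31.3 and 25.4 CPM in BHB libraries, so the groups overlapped. It too was higher in 3 of 3 pairs, by 0.15, 0.18 and 0.15, with a log2 fold change of 0.16 (SE 0.18; edgeR adjusted p = 0.999). The reads of COL4A2 per read of COL4A1, a ratio within each library that needs no scaling between libraries, were 0.250, 0.279 and 0.262 in controls and 0.325, 0.381 and 0.379 with BHB. The ratio was thus higher in each BHB library than in any control; it was looked at after the values of both genes were known and was not tested. The lowest and highest log2 fold change of COL4A2 when 1 library was left out were 0.48 (without BHB library 2) and 0.75 (without control library 2).

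The other basement membrane collagens had 1.69 to 3.60 CPM on average and overlapping groups. COL4A5 and COL4A6, also neighbours, had log2 fold changes of 0.19 (SE 0.36) and 0.40 (SE 0.49). COL18A1, whose C-terminal fragment is endostatin, had 0.53 (SE 0.55), and COL4A4 had -0.53 (SE 0.58) with lower values in 3 of 3 pairs. At these levels, differences of the size seen in COL4A2 were within the error.

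Fibril-forming collagens are the rod-like collagens of connective tissue, and 5 were measured. COL1A2, which encodes the alpha2 chain of type I collagen, was at 61.4, 63.0 and 59.2 CPM in the controls, against 80.2, 52.9 and 44.4 CPM with BHB. The 3 controls were close to each other and the BHB libraries fell on both sides of them, with BHB library 1 the highest of all 6. Its log2 fold change was -0.05 (SE 0.21). COL1A1, which encodes the partner alpha1 chain, had few reads, with 0.0274 to 0.0615 reads per read of COL1A2 in every library. COL24A1 was at 1.60, 4.91 and 3.76 CPM in controls and 7.14, 3.60 and 3.36 CPM with BHB, and its log2 fold change of 0.46 (SE 0.49) became 0.02 without BHB library 1. COL1A1, COL11A1 and COL27A1 had log2 fold changes from -0.31 to 0.10, and no gene of this group had 1 direction in 3 of 3 pairs.

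Of the other 10 collagens, 7 were positive and 3 negative (median 0.31). COL12A1 encodes a collagen that coats the surface of fibrils. It was at 96.3, 73.7 and 99.6 CPM without and 112, 74.4 and 69.4 CPM with BHB, with overlapping groups and a log2 fold change of -0.08 (SE 0.21). COL17A1, the transmembrane collagen of hemidesmosomes, was at 5.21, 3.58 and 5.87 CPM in control and 7.41, 4.85 and 15.8 CPM in BHB libraries. BHB library 3 stood far above the rest, and all 3 pairs had the BHB library higher, by 0.47, 0.39 and 1.35. Its log2 fold change was 0.93 (SE 0.44; edgeR adjusted p = 0.999), or 0.82 within pairs (adjusted p = 0.536), and it was 0.32 without BHB library 3.

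COL9A2, a chain of the fibril-associated type IX collagen, was at 5.08, 7.16 and 8.81 CPM in the controls, against 6.74, 9.97 and 15.3 CPM with BHB. Levels were lowest in pair 1 and highest in pair 3 in both groups, and the BHB library was higher within each pair, by 0.38, 0.45 and 0.77. The log2 fold change was 0.60 (SE 0.36; edgeR adjusted p = 0.999), or 0.57 within pairs (adjusted p = 0.59), and 0.25 without BHB library 3. The group also holds COL28A1, singled out after its values were seen because its groups did not overlap. It was at 1.72 to 1.88 CPM in controls and 1.25 to 1.60 CPM with BHB, from 9 to 16 counts per library, and its log2 fold change of -0.33 (SE 0.42) was within the error. The remaining members of the group, COL6A2, COL6A5, COL7A1, COL21A1, COL22A1 and COL23A1, had log2 fold changes from -0.20 to 0.80 with SEs of 0.41 to 0.82.

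Laminin chains had 3 positive and 4 negative values (median -0.18). LAMB1, LAMC1 and LAMA1 encode the chains of laminin-111, the trimer of early embryonic basement membranes. LAMB1 was at 137, 183 and 142 CPM without and 188, 161 and 157 CPM with BHB, with a log2 fold change of 0.13 (SE 0.15). LAMC1 was at 77.9, 53.3 and 53.3 CPM in control and 62.1, 57.5 and 42.7 CPM with BHB (log2 fold change -0.18, SE 0.21). Groups overlapped for both chains, and their intervals (-0.21 to 0.48 and -0.65 to 0.29) leave out a 2-fold difference. LAMA1 was lower in the BHB library of each pair, with differences of -0.07, -0.38 and -0.29, and its log2 fold change of -0.22 (SE 0.27) was -0.01 without control library 1.

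LAMB2, a beta chain that replaces LAMB1 in other laminins, had the lowest fold change of all members and few reads. Its counts were 17, 28 and 31 in controls and 11, 14 and 4 with BHB. In CPM these were 2.27, 3.71 and 3.64 against 1.48, 1.94 and 0.584, so all BHB libraries lay below all controls. The log2 fold change was -1.25 (SE 0.50, 95% interval -2.38 to -0.12; edgeR adjusted p = 0.999), and within pairs it was -1.28 (adjusted p = 0.561). Without BHB library 3, which held 4 counts, it was -0.90. LAMA5, the alpha chain of laminin-511, was at 14.3 to 21.5 CPM in controls and 11.8 to 18.6 CPM with BHB (log2 fold change -0.18, SE 0.25). LAMA2 and LAMA3 had log2 fold changes of 0.98 (SE 0.47) and 0.37 (SE 0.46) at mean levels under 5 CPM, with overlapping groups.

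**Figure D3:**
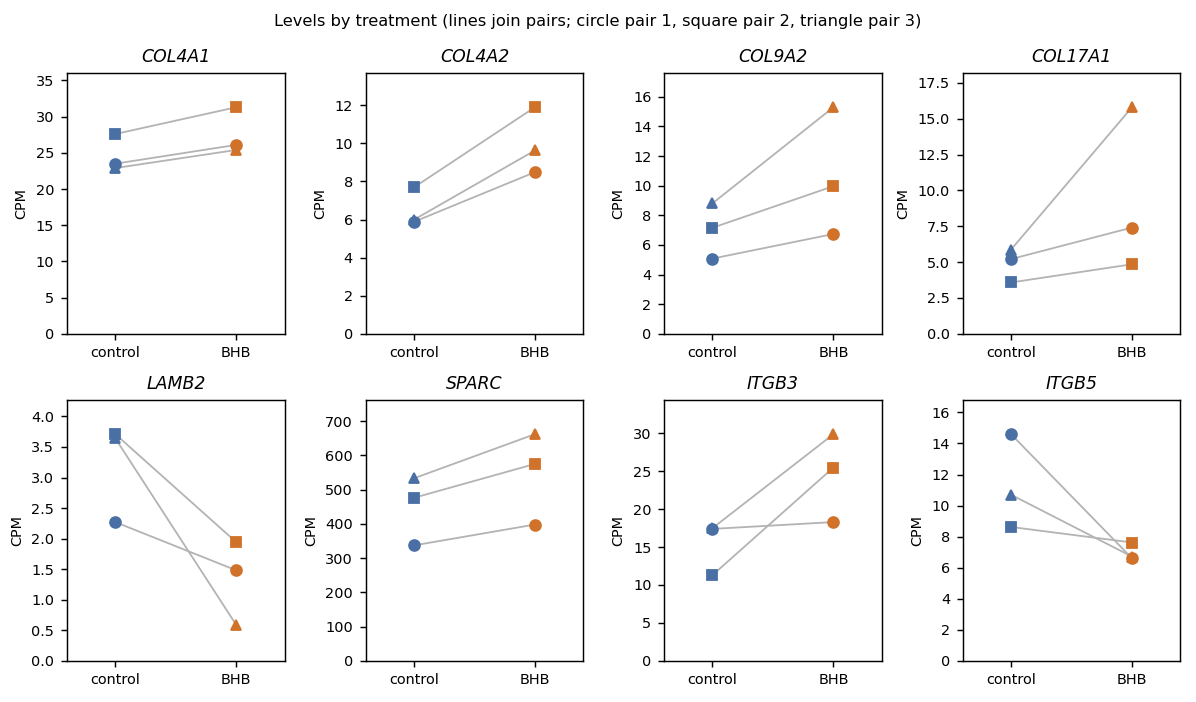
CPM of 8 members in control (blue) and BHB (orange) libraries, with lines joining the libraries of a pair; each vertical axis starts at 0 and is linear. COL4A2 and ITGB3 lie higher and LAMB2 and ITGB5 lower in all BHB libraries than in any control, whereas SPARC and COL9A2 overlap between groups but are higher with BHB within each pair.

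FN1 had the most reads of the members. It was at 2862, 3522 and 3095 CPM in the controls, against 2850, 3503 and 2917 CPM with BHB. Both libraries of pair 2 were above the other 4, and the differences within pairs were -0.01, -0.01 and -0.09. Its log2 fold change was -0.03 (SE 0.14, 95% interval -0.36 to 0.29), among the narrowest intervals of the members. HSPG2, the perlecan gene, and NID2, 1 of the nidogen genes, had log2 fold changes of -0.05 (SE 0.27) and 0.03 (SE 0.26). The other nidogen gene, NID1, had 0.02 (SE 0.43), with differences of 0.64, -0.21 and 0.01 in pairs 1 to 3.

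SPARC was at 337, 476 and 533 CPM in control libraries and at 398, 575 and 662 CPM in BHB libraries. Groups overlapped because pair 1 was low in both, but within each pair the BHB library was higher, by 0.24, 0.27 and 0.31. Without pairing the log2 fold change was 0.28 (SE 0.22; edgeR adjusted p = 0.999), and leaving out 1 library gave 0.12 (without control library 1 or BHB library 3) to 0.47 (without BHB library 1). With the pair as a block it was 0.28 with an SE of 0.09 (edgeR adjusted p = 0.503; DESeq2 adjusted p = 0.706). The difference was thus similar in 3 of 3 pairs and did not pass after adjustment over all genes.

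Integrins were read by the ligands of their dimers. ITGB1, the beta1 chain shared by most of them, was at 620, 701 and 563 CPM without and 642, 641 and 548 CPM with BHB (log2 fold change -0.04, SE 0.14, 95% interval -0.35 to 0.26). Chains of laminin receptors had 1 positive and 3 negative values: ITGA6 at 0.28 (SE 0.18), ITGA3 at -0.30 (SE 0.28), ITGA7 at -0.74 (SE 0.60) and ITGB4, which pairs with ITGA6 in hemidesmosomes, at -1.03 (SE 0.72). ITGB4 had 9 to 13 counts in controls and 1, 11 and 3 with BHB. Chains of collagen receptors were ITGA1 at -0.10 (SE 0.36), ITGA2 at 0.64 (SE 0.41) and ITGA10 at -0.55 (SE 0.54). ITGA2 was at 15.0 CPM in BHB library 1 and at 4.68 to 8.62 CPM in the other 5 libraries, and its log2 fold change was 0.17 without that library.

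The 5 chains of receptors for the RGD motif of fibronectin and vitronectin held both integrin chains at an unadjusted edgeR p under 0.05. ITGB3 was higher (background 1.46%) and ITGB5 lower (background 1.26%), and the group was not tested as a set. ITGB3, the beta3 chain, was at 17.4, 11.3 and 17.5 CPM in control and 18.3, 25.5 and 29.9 CPM in BHB libraries. The lowest BHB library was just above the highest control, and the differences within pairs were 0.08, 1.14 and 0.76. Its mean was 15.4 ± 3.56 (SD, n = 3) in control and 24.6 ± 5.85 (SD, n = 3) in BHB libraries. The log2 fold change was 0.67 (SE 0.26, 95% interval 0.10 to 1.25, edgeR adjusted p = 0.999), and within pairs it was 0.67 (SE 0.22, edgeR adjusted p = 0.502). Leaving out 1 library gave 0.50 (without control library 2) to 0.85 (without BHB library 1).

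ITGB5, the beta5 chain, was at 14.6, 8.62 and 10.7 CPM in the controls, against 6.60, 7.62 and 6.71 CPM with BHB. The BHB libraries were close together and below each control, with differences of -1.08, -0.17 and -0.63 within pairs. Means were 11.3 ± 3.02 (SD, n = 3) and 6.98 ± 0.557 (SD, n = 3) CPM. The log2 fold change was -0.69 (SE 0.28, 95% interval -1.32 to -0.06; edgeR adjusted p = 0.999; within pairs adjusted p = 0.564), and -0.47 without control library 1. Both chains can pair with the alphaV chain. Within libraries there were 0.838, 0.765 and 0.611 reads of ITGB5 per read of ITGB3 in controls and 0.360, 0.299 and 0.224 with BHB. The 2 sets of ratios lay apart, but the ratio was formed after both genes were seen to differ in opposite directions and was not tested.

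ITGAV, the alphaV chain itself, was at 44.7, 37.4 and 100 CPM without and 59.5, 49.3 and 50.3 CPM with BHB. Control library 3 alone was high, and leaving it out turned the log2 fold change from -0.20 (SE 0.33) to 0.37. ITGA5, which binds fibronectin together with ITGB1, was at 24.8, 28.1 and 36.8 CPM in control and 29.2, 44.2 and 32.0 CPM with BHB (log2 fold change 0.23, SE 0.22). ITGA2B, the platelet partner of ITGB3, was under 5 CPM in each library. Leukocyte integrin chains ITGAL, ITGAX, ITGAE and ITGB2 had log2 fold changes from -0.08 to 0.29. ITGAE was at 23.6 to 37.8 CPM, ITGAL at 4.34 to 7.34 CPM and its partner ITGB2 at 0.795 to 4.54 CPM. These levels stand beside the leukocyte list given above, and the part of such cells in these reads was not tested.

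The 4 genes that match by name alone had overlapping groups. COL4A3BP was at 215, 236 and 234 CPM in controls and 273, 219 and 201 CPM with BHB (log2 fold change 0.02, SE 0.14). ITGB1BP1 was at 125, 106 and 110 CPM and at 121, 106 and 116 CPM (0.01, SE 0.13). ITGB3BP and ITGB1BP2 had log2 fold changes of 0.02 (SE 0.22) and 0.57 (SE 0.47).

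Differences between the pairs of libraries were tested with treatment kept in the model, since control and BHB libraries of a pair deviated together. Of the 54 members, 3 passed edgeR's quasi-likelihood test between pairs (5.56%), against 4.12% of all tested genes, and DESeq2 called 4 against 5.23%. The 3 were the nidogen gene NID1, SPARC and the laminin alpha1 gene LAMA1. NID1 was at 36.6 and 57.3 CPM in the control and BHB libraries of pair 1, at 130 and 112 CPM in pair 2 and at 59.9 and 60.1 CPM in pair 3. Pair 2 stood apart from the other 4 libraries, with a log2 difference from pair 1 of 1.38 (SE 0.20; edgeR adjusted p = 0.0102 over the 3 pairs). NID2 had no such pattern (edgeR adjusted p = 0.505 between pairs), and the reads of NID1 per read of NID2 were 4.00 and 2.81 in pair 2 and 0.973 to 1.59 in the other 4 libraries.

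SPARC was lowest in pair 1, with log2 differences of 0.51 (SE 0.11) for pair 2 and 0.70 (SE 0.11) for pair 3 against pair 1 (edgeR adjusted p = 0.0197). LAMA1 had the opposite order. It was at 60.5 and 57.5 CPM in pair 1, at 44.8 and 34.2 CPM in pair 2 and at 37.5 and 30.5 CPM in pair 3, with log2 differences of -0.59 (SE 0.17) and -0.80 (SE 0.17) against pair 1. Its adjusted p of 0.0499 was at the threshold and ranged from 0.0339 (DESeq2) to 0.239 (without BHB library 1) over the alternatives. COL21A1 was the further member called by DESeq2 (adjusted p = 0.0155; edgeR adjusted p = 0.0558). Its counts were 2 and 18 in pair 1, 31 and 35 in pair 2 and 74 and 61 in pair 3.

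**Figure D4:**
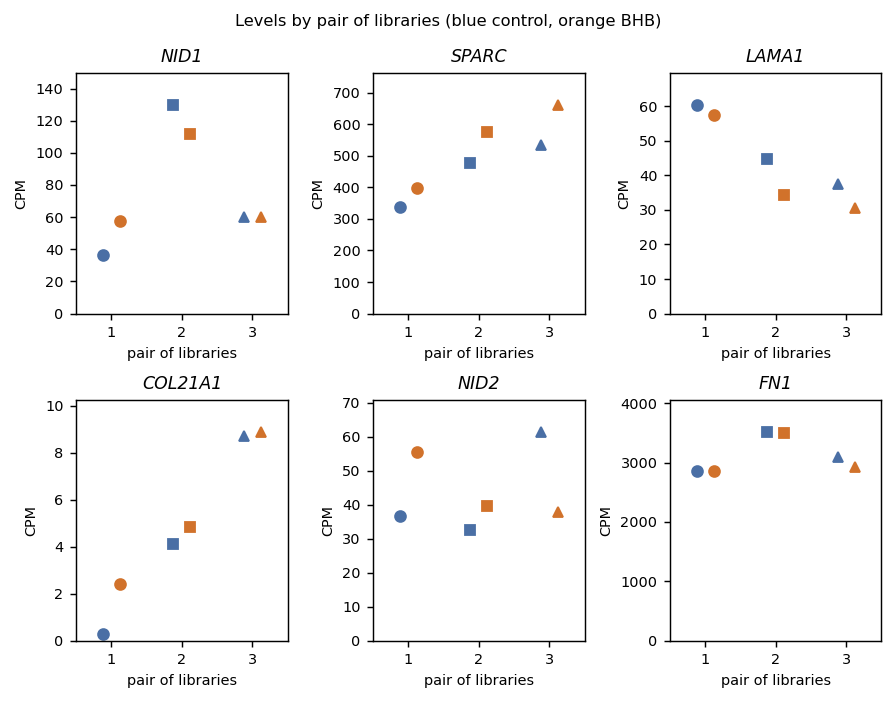
CPM of 6 members in the 3 pairs of libraries, control in blue and BHB in orange, on linear axes that start at 0. NID1 is high in pair 2, SPARC and COL21A1 are low in pair 1 and LAMA1 is high in pair 1, each in both libraries of the pair; NID2 shows no such order.

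Lineage markers differed between the same pairs. In edgeR's test, 5 of 12 tested trophectoderm genes passed (41.7%): KRT8, KRT18, KRT19, PAG2 and DAB2. So did 3 of 10 primitive endoderm genes (30%; PDGFRA, HNF4A and DAB2) and 1 of 7 fibroblast genes (14.3%, PDGFRA again). Of 8 epiblast genes 0 passed, and the share of all tested genes was 4.12%. PDGFRA, a receptor of primitive endoderm and of stroma, was at 40.7 and 57.7 CPM in pair 1, 98.9 and 106 CPM in pair 2 and 93.3 and 82.1 CPM in pair 3 (edgeR adjusted p = 0.0225). HNF4A, an endoderm transcription factor, was at 11.4 and 9.83 CPM in pair 1, 29.3 and 21.5 CPM in pair 2 and 17.5 and 15.0 CPM in pair 3 (adjusted p = 0.0332). The trophectoderm list summed to 19040 and 15149 CPM in pair 1, 17172 and 13017 CPM in pair 2 and 11727 and 9287 CPM in pair 3, and the fibroblast list to 115 and 86.4, 165 and 194, and 232 and 123 CPM. Of the fibroblast list, PDGFRB, TWIST1 and DPT were not among the genes of the table. The primitive endoderm list summed to 880 and 906 CPM in pair 1, 1068 and 1040 CPM in pair 2 and 862 and 753 CPM in pair 3. Most of that sum was DAB2, which is also on the trophectoderm list. It was at 631 and 607 CPM in pair 1, 719 and 677 CPM in pair 2 and 493 and 442 CPM in pair 3 (edgeR adjusted p = 0.0402). DAB2 was thus lowest in pair 3, whereas PDGFRA and HNF4A were lowest in pair 1. The part of these markers in the differences of NID1, SPARC and LAMA1 was not tested.

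The authors' deposited table lists 3 of the 54 members at an adjusted p under 0.05, among 646 of 12826 genes. They are NID1 (adjusted p = 1.43e-06), SPARC (adjusted p = 3.85e-05) and LAMA1 (adjusted p = 0.0398), with log2 fold changes of BHB over control of 0.13, 0.27 and -0.25 in that table. These are the 3 members that edgeR called between pairs. The deposited p-values were returned by a likelihood ratio test of a model with pair and treatment against a model with neither, so a small p there can come from pairs, from treatment or from both. The members with a deposited unadjusted p under 0.05 were 5, the 3 above with COL17A1 and COL21A1. All 5 had an edgeR p under 0.05 between pairs, where 20.6% of all tested genes had one. The deposited test holds the pair term and uses the same counts, so this overlap was largely fixed in advance and is no separate result. Of the 5, 2 (SPARC and COL17A1) had an edgeR p under 0.05 for treatment within pairs. COL17A1 and COL21A1 are listed with an adjusted p = 1 in the authors' deposited table.

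**Figure D5:**
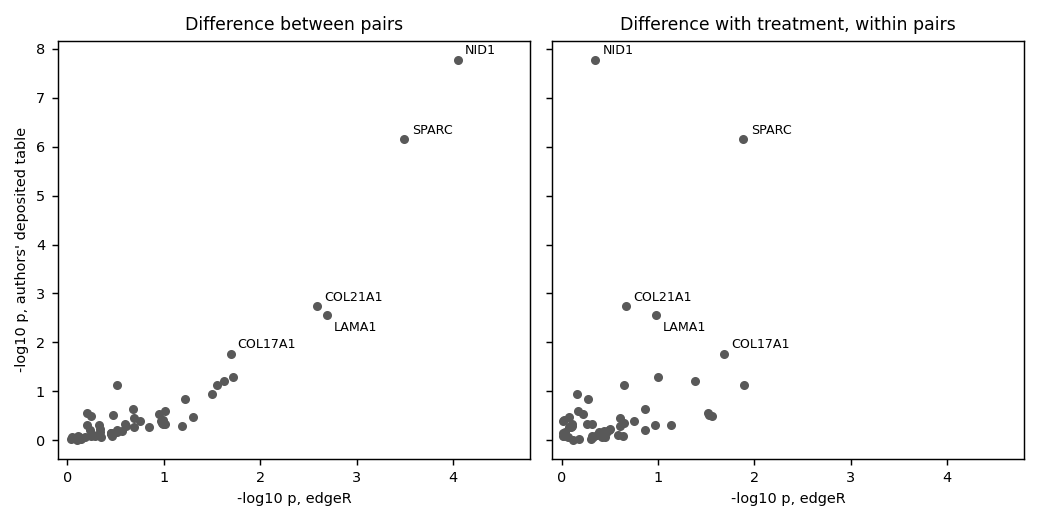
Each point is a member, with -log10 of the p-value in the authors' deposited table on the vertical axis against -log10 of edgeR's p-value between pairs (left) or for treatment within pairs (right). NID1, the highest point, lies far along the horizontal axis on the left (edgeR adjusted p = 0.0102) and near its origin on the right (edgeR adjusted p = 0.879).

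Genes that modify, accompany or read the matrix were taken from 4 lists drawn up with earlier results of these libraries known. No gene of any list passed edgeR's test of BHB against control (adjusted p = 0.999 throughout). Enzymes and carriers of collagen modification and secretion had 26 of 32 genes tested, 9 positive and 17 negative (median -0.05). Of these 26, 1 had an unadjusted edgeR p under 0.05, against 2.73% of all tested genes. That gene was PLOD2, a lysyl hydroxylase that sets the cross-links of collagen, at 28.7, 35.5 and 44.0 CPM in controls and 22.0, 24.4 and 28.0 CPM with BHB (log2 fold change -0.54, SE 0.20; within pairs adjusted p = 0.435). All BHB libraries were below all controls, as in 3.78% of all tested genes. PLOD3, a related hydroxylase, had -0.46 (SE 0.24) and TMEM38B, an ion channel of the endoplasmic reticulum, 0.39 (SE 0.23). PLOD2 was -0.38 without control library 3, and PLOD3 was -0.23 without control library 2.

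Integrin adaptors and focal adhesion genes had 28 of 31 tested, 15 positive and 13 negative (median 0.05). FERMT2, which encodes kindlin-2, an activator of integrins that binds the beta tail, was at 535, 455 and 326 CPM in the controls, against 359, 336 and 236 CPM with BHB. Groups overlapped, but the BHB library was lower within each pair, and the log2 fold change was -0.50 (SE 0.21; edgeR adjusted p = 0.999). Within pairs DESeq2's Wald test called it lower (adjusted p = 0.0165), where 0.275% of all tested genes were called. The blocked edgeR test did not (adjusted p = 0.183), and over all alternatives the adjusted p ran from 0.0165 to 1. FERMT2 also differed between pairs (edgeR adjusted p = 0.0287), in the same order as the trophectoderm list. ACTN1, an actin cross-linker of adhesion sites, had 0.35 (SE 0.20) and ZYX, a focal adhesion protein, 0.38 (SE 0.22). Without control library 1, FERMT2 was -0.33 and ACTN1 0.22, and ZYX was 0.22 without BHB library 1.

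Other matrix receptors had 12 of 13 tested, 2 positive and 10 negative (median -0.22), with 0 at an unadjusted p under 0.05 in edgeR and 2 of 12 within pairs, against 8.20% of all tested genes. RPSA, a ribosomal protein also described as a laminin receptor, had a log2 fold change of -0.27 (SE 0.15), dystroglycan (DAG1) -0.27 (SE 0.16) and syndecan-1 (SDC1) -0.33 (SE 0.26). Without BHB library 3, RPSA was -0.18 and DAG1 -0.17, and SDC1 was -0.15 without control library 1. RPSA has processed pseudogenes, so its reads may be split. Other matrix and basement membrane glycoproteins had 18 of 28 tested, 8 positive and 10 negative (median -0.01). NTN1, which encodes netrin-1, had -1.32 (SE 0.63), FBN2, a fibrillin gene, -1.70 (SE 0.87) and TGFBI, an integrin-binding matrix protein, 1.01 (SE 0.67). Without control library 3, NTN1 was -0.56 and FBN2 -1.05, and TGFBI was 0.49 without BHB library 3.

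In that last list, 4 of 18 genes passed between pairs (22.2%) against 4.12% of all tested genes, named here after their values were seen. FREM1 was at 43.0 and 18.2 CPM in pair 1 and at 3.46 to 7.28 CPM in the other 4 libraries (edgeR adjusted p = 0.00294). FRAS1, whose protein forms a basement membrane complex with FREM proteins, was at 22.7 and 7.41 CPM in pair 1 and at 0.138 to 2.65 CPM elsewhere (adjusted p = 0.0287). AGRN, the agrin gene, was also highest in pair 1 (adjusted p = 0.0365), whereas TGFBI was lowest there, at 6.14 and 4.18 CPM against 15.5 to 41.9 CPM (adjusted p = 0.0197). On the list of collagen modification and secretion, 1 of 26 tested genes passed between pairs (3.85%). It was LOXL2, a cross-linking oxidase of collagen IV, at 57.3 and 34.6 CPM in pair 2 and at 11.8 to 22.5 CPM in the other 4 libraries (edgeR adjusted p = 0.0332). Of the other matrix receptors, 1 of 12 passed (8.33%). It was the tetraspanin CD151, a partner of laminin-binding integrins, which was highest in pair 1 (edgeR adjusted p = 0.011).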

How the data were processed

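The authors deposited whole-number counts per gene for 6 libraries, and a results table for BHB and control. The submitters' processing notes name STAR, featureCounts and DESeq2, without role, version or build; how strand was counted is not stated either. The counts are not normalized. The authors' deposited table holds a mean count on a signal scale, a log2 fold change of control over BHB with its error and a test statistic (scores), and p-values; the sign was turned here. Samples were grouped by the treatment in their labels and numbered in order of deposit.

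Counts were filtered with filterByExpr (12732 of 12826 genes kept), scaled by TMM and tested with edgeR 4.0.16's quasi-likelihood F test in R 4.3.3, adjusted by Benjamini-Hochberg over all tested genes at 0.05. The SE is the log2 fold change divided by the root of F. DESeq2 1.42.0 and limma 3.58.1 (voom) were alternatives, with other scalings, filters, a replicate block and each library left out. The script was tested on simulated data.

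Pairs came from refitting the deposited p-values: control 1, 2 and 3 with BHB 1, 2 and 3 returned 100% of them within 1e-06, the other 5 pairings 0 to 0.398%. Deviations from group means correlated at 0.46, 0.32 and 0.33 within pairs over genes. No libraries were duplicates within counting noise. The members and lists were chosen with earlier results of these data known. Named members are the 2 with most CPM of each role group, those at an unadjusted p under 0.05 with or without the block and those called between pairs, and of each list up to 3 with the smallest p; other members are named to account for all 54. Sequences are not used here.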

Additional observations from a re-analysis of the deposited data

How the results depend on the processing

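Members called between BHB and control were 0 in all 17 alternatives run. All genes called, 0 without pairing, were 6 with DESeq2's Wald test and 35 with the replicate block in that test; the replicate block in edgeR called 0. Leaving out 1 library gave 0 to 1 gene. With the replicate block and without pair 1, 2 or 3, alternatives chosen after seeing the data, edgeR called 4, 16 and 4 genes. The median member log2 fold change, 0.02, was 0.18 in the blocked fit without pair 3. Of 21 named members, 10 kept their direction in every alternative. With library size alone, which moved the median of all genes by 0.07, COL1A2, FN1 and ITGB1 turned to 0.01, 0.03 and 0.03. COL4A3BP turned to -0.00 with the replicate block in DESeq2. In the blocked fit without pair 1, COL24A1, COL4A3BP, LAMB1 and NID1 turned to -0.31, -0.16, -0.02 and -0.11; without pair 2, ITGB1 turned to 0.01; without pair 3, COL12A1, COL1A2, FN1, ITGAV and ITGB1BP1 turned to 0.12, 0.08, 0.00, 0.42 and -0.01. The cause was not tested. Leaving out 1 library gave ranges that cross 0 in COL12A1 (-0.32 to 0.05), COL1A2 (-0.33 to 0.12), COL4A3BP (-0.12 to 0.10), FN1 (-0.13 to 0.05), ITGAV (-0.45 to 0.37), ITGB1 (-0.11 to 0.05), ITGB1BP1 (-0.04 to 0.09), LAMC1 (-0.29 to 0.02) and NID1 (-0.36 to 0.66). Such fits keep the partner of the library left out.

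Between pairs, 524 genes were called, and leaving out 1 library gave 300 (without control library 1) to 1076 (without BHB library 3). Members called there, 3, numbered 2 to 6 when 1 library was left out, the 6 without BHB library 3 being COL21A1, ITGAV, LAMA1, NID1, NID2 and SPARC. NID1 and SPARC were called in all 12 alternatives (adjusted p from 4.85e-07 to 0.0343 and from 0.000187 to 0.0437). LAMA1 was not called with limma-voom (adjusted p = 0.0518), library size alone (0.0851), the stricter filter (0.0612) or without control library 1 (0.116), BHB library 1 (0.239) or BHB library 2 (0.0515). For the 24 members under 5 CPM, counting depth limits what can be seen.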
